A study of Mus musculus with 21 samples.

Results

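The receptor genes that define the sense of smell were followed through the transcriptome of a taste organ. The loci described are those in which every gene symbol began with Olfr (odorant receptors), Vmn1r or Vmn2r (the 2 families of vomeronasal receptors) or Taar (trace amine-associated receptors). The rule used names and no measured value, though it was set with earlier results of these data known. Among 32052 loci with a deposited expression value, 1739 qualified. They comprised 1218 Olfr, 310 Vmn1r, 195 Vmn2r and 16 Taar loci. A single symbol stood at 1737 of them and 2 symbols at 2. A further 43 loci held such a receptor together with other genes and were kept apart.

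RNA had been taken from circumvallate taste buds, the taste organs in the trench at the back of the tongue, of wild-type C57BL/6J mice aged 20 to 24 weeks. Per the protocols, whole circumvallate papillae were dissected, and the part of cells other than taste cells was not tested. The labels place 7 libraries in each of 3 feeding groups, Ad lib, Satiated and Hungry. The deposited table lists 3 conditions, but its values were the same in all 3 at each of the 32052 loci, so no feeding group could be compared with another. Each locus has 1 mean and 1 variance for all 21 libraries and no value per library.

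Odorant, vomeronasal and trace amine-associated receptors are G protein-coupled receptors that span the membrane several times and bind airborne or liquid-borne molecules. In the nose each olfactory neuron expresses a single odorant receptor allele at a high level, and the signal passes through the G protein Golf, adenylyl cyclase and a cyclic nucleotide-gated channel. Vomeronasal neurons use the receptors of the Vmn1r or the Vmn2r family and the channel Trpc2. Genes of these families lie in tandem clusters, their coding region is often a single exon, and some are also transcribed outside the nose.

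Odorant receptors share short coding motifs. One of them was read from members with many fragments, around the Asp-Arg-Tyr codons that mark the inner end of the third transmembrane segment. These 9 bases are in capitals. Each window is 30 bases of the coding strand, 5′ to 3′, from GENCODE M21 transcripts on GRCm38. The first 3 lines are members at 10 or more compatible fragments per library (defined below) and the last 3 are members with many fragments, nearly all of another kind.
Olfr901: atgtcctatGACAGATATgtggccatatgt
Olfr920: atggcctatGATCGTTATgtggctatctgc
Olfr893: atggcctatGATCGTTATgtggccatctgt
Olfr458: atggcctatGACCGCTACgtggctgtctgt
Olfr460: atggccgtgGATCGTTATgtagctgtctgt
Olfr902: atggcttatGATCGATATgtggctatctgt
Against the window of Olfr901, that of Olfr893 was identical at 25 of 30 bases. The window of Olfr902 was identical at 24, those of Olfr920 and Olfr458 at 23, and that of Olfr460 at 19. The stretch was chosen for its conserved codons, so its likeness does not stand for whole transcripts. Of the stretches of 50 bases in the transcripts of Olfr893 and Olfr902, 0 occurred in transcripts of other genes. The shared part was 24.0% for Olfr458, 7.33% for Olfr901, 2.67% for Olfr920 and 2.27% for Olfr460. The Olfr920 transcript has 5711 bases, against 1960 in the model used for its level. No Asp-Arg-Tyr codons were found in the searched part of Olfr613 and Olfr857, so no window is shown for them.

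For the pair of odorant receptors with the highest levels, the 250 bases before the annotated start are given next, from RefSeq on GRCm38.p6. For Olfr901 the window is chr9:38430034-38430283 on the plus strand. For Olfr613 it is chr7:103550118-103550367, also on the plus strand. Capitals mark bases that GENCODE M21 places in an exon of the same gene, which were 30 for Olfr901 and 0 for Olfr613.
Olfr901: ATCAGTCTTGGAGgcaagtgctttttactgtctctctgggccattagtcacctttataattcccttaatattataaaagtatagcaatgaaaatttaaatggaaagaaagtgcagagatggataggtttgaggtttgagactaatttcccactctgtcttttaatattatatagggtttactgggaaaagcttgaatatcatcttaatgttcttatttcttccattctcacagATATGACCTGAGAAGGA
Olfr613: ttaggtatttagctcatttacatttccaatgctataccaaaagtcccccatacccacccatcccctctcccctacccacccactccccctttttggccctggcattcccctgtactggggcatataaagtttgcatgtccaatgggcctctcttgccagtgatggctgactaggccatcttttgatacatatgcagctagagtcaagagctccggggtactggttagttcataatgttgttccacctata
The base after the Olfr901 window opens the start codon, because the annotated start used in the table is that of the coding sequence. Later GENCODE transcripts of Olfr901 begin upstream of it. Neither window held the palindromic homeodomain motif TAATTA or the Ebf motif, which is TCCC and GGGA parted by any 2 bases. Homeodomain and Ebf proteins are the factors whose sites are known from odorant receptor promoters in the nose.

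Both motifs were counted on both strands in RefSeq windows from 250 bases before to 50 bases after a start. Of the members 1197 of 1739 had such a window. For Olfr461 and Vmn2r25, as for Olfr901, the start used is that of the coding sequence. All 250 bases before it lie in GENCODE M21 exons of the same gene for Olfr461 and Vmn2r25. Such windows are not promoters, and how many members have them was not counted. TAATTA was present in 200 of the 1200 windows of members (16.7%), against 1738 of 32817 windows of all genes (5.30%). The windows of members were also poorer in G and C, with a median of 35.7% against 52.7%. Among members at 1 or more compatible fragments, 3 of 35 windows held TAATTA (8.57%), and among members at 0 it was in 168 of 1022 (16.4%). The median of G and C was 39.3% in the windows of members at 1 or more and 35.7% in those of members at 0. The Ebf motif was in 4 windows of members (0.333%) and in 297 windows of all genes (0.905%). These letters are matches, not sites at which a protein was measured.

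Levels are the authors' mean fragments per library after scaling by size factors. Compatible fragments are those that fit an annotated transcript of the locus, and total fragments are all that were assigned to the locus. The mean library held 2.19e+07 compatible and 2.38e+07 total fragments over all loci. With no value per library, a level carries only the coefficient of variation (CV), the square root of the authors' variance divided by the mean. A level of 0 allows a mean of up to 0.143 fragments per library, which is 3 fragments over 21 libraries before scaling and covers counting error only. Whether a low level stands for few cells or for little RNA per cell cannot be told apart in bulk tissue.

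Most receptors of smell had no fragment that fit their annotated transcripts. Compatible fragments were 0 at 1462 of the 1739 members (84.1%), against 35.1% of the 30313 other loci. A further 226 members had a mean under 1 and 41 had a mean from 1 to 10. Only 10 members reached 10 or more (0.575%), against 44.4% of other loci. At 1 or more there were 51 members (2.93%), against 53.4% of other loci.

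By total fragments the picture was fuller. The count at 0 was 353, with 1065 under 1, 251 from 1 to 10 and 70 at 10 or more (4.03%, against 53% of other loci). Of those 70 members, 25 had 0 compatible fragments and 15 had a mean under 1. In sum the members held 821 compatible and 9725 total fragments per mean library. The compatible share was therefore 8.44% at the members and 92.1% over all loci. Their compatible fragments were 0.00375% of those of all loci.

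**Figure D1:**
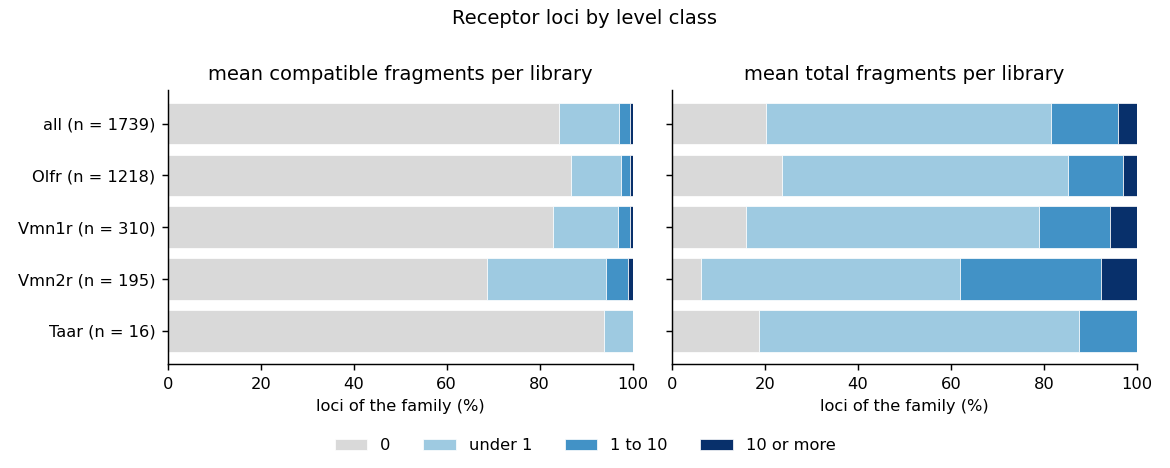
Share of loci of each receptor family (horizontal axis, percent) in 4 classes of mean fragments per library, for compatible fragments on the left and total fragments on the right; n is the number of loci. Grey, the class at 0, covers 84.1% of all members by compatible fragments and 20.3% by total fragments.

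The families differed in how many members were empty. By compatible fragments 86.7% of Olfr, 82.9% of Vmn1r, 68.7% of Vmn2r and 93.8% of Taar loci were at 0. The members at 10 or more were 6 Olfr, 2 Vmn1r, 2 Vmn2r and 0 Taar loci. Vmn2r genes have long multi-exon coding regions, and these levels are not divided by length. Olfr loci held 77.6% of the members' compatible fragments, Vmn1r loci 14.6%, Vmn2r loci 7.81% and Taar loci 0.0261%. By total fragments the order differed, as the right side of the plot of level classes shows. At 0 were 23.7% of Olfr, 18.8% of Taar, 15.8% of Vmn1r and 6.15% of Vmn2r loci.

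Few genes carried most of the signal. Olfr901 alone had 32.1% of the members' compatible fragments and the 10 highest loci had 78.9%. By total fragments the leading locus, Olfr458, had 16.4% and the 10 highest had 69.1%. The 10 highest by compatible fragments ranked from 2 to 32 by total. Of the 10 highest by total, Olfr857, Vmn1r-ps152, Olfr460 and Olfr902 were at 0 compatible fragments and Olfr458 was under 1.

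Olfr901 was the highest receptor gene. It is a class II odorant receptor at chr9:38430284-38431219, annotated as a single coding exon of 936 bases. Its level was 264 compatible fragments, a mean over 21 libraries with a CV of 0.239, and 471 in total. Per kilobase of exon it had 282 compatible fragments, the highest of all members. GENCODE M21 gives Olfr901 exons of 2735 bases in all, against 936 in the table's model. The other fragments of the locus came to 207 per library, and whether they belong to longer transcripts of Olfr901 was not tested.

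Olfr613 came second and had a far higher compatible share. It lies at chr7:103550368-103555504 in the class I cluster, the group of odorant receptors related to those of fish. Its model has 5137 bases, of which 951 are coding. Per kilobase of exon it had 26.0 compatible fragments and ranked 4 among members. Where in the model its fragments lie was not tested. Its compatible level of 134 (CV 0.378) nearly equalled its total of 134, a share of 99.9%. Only 2 of the 70 members at 10 or more total fragments had a compatible share of 90% or more. The other was Vmn1r58, a vomeronasal receptor gene at chr7:5408887-5413145, with 50.7 compatible and 50.8 total fragments and a CV of 0.585. The model of Vmn1r58 has 2683 bases, of which 930 are coding.

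The next odorant receptors had mixed shares. Olfr920, at chr9:38752796-38756863, had 52.3 compatible fragments (CV 0.649) out of 582. Olfr1414, at chr1:92511048-92518515, had 32.0 out of 250, and its CV of 1.10 was the highest of the 10. At both loci most fragments were of the other kind. Olfr893 and Olfr461 showed the reverse. Olfr893, at chr9:38209052-38209993, had 37.6 compatible fragments out of 48.4 (77.6%), with a CV of 0.757. Olfr461, at chr6:40544036-40544977, had 23.5 out of 29.8 (78.9%), with a CV of 0.665.

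Both Vmn2r genes at 10 or more belong to sets of close copies. Vmn2r29, at chr7:7231327-7247328, had 16.1 compatible fragments out of 93.2, with a CV of 0.494. Vmn2r25, at chr6:123822814-123853190, had 13.5 out of 56.9, with a CV of 0.688. Of the stretches of 50 bases in the transcript of Vmn2r29, 94.9% occurred in transcripts of other genes, and of those of Vmn2r25 67.0% did. Their levels are therefore uncertain as values of single genes. The shared part was 13.8% for Vmn1r58, 4.70% for Olfr613, 3.69% for Olfr1414 and 2.58% for Olfr461. These parts refer to a transcript that for some genes is longer than the model used for the levels. Lengths were 10140 against 2683 bases for Vmn1r58, 6017 against 1255 for Olfr1414 and 4009 against 2568 for Vmn2r25. For Vmn2r29 and Olfr461 both lengths were the same, and for Olfr613 they were 5139 and 5137. The shared part of the shorter models was not computed.

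The remaining member at 10 or more was a pseudogene by its symbol. Vmn1r-ps151, at chr18:3026901-3027882, had 24.6 compatible fragments (CV 0.534) out of 1539. Of its stretches of 50 bases, 32.5% occurred in transcripts of other genes. Its neighbour Vmn1r-ps152, at chr18:3080778-3081476, was at 0 compatible and 752 total fragments. Pseudogene symbols as a group were not set apart: 10 of 343 such loci (2.92%) and 41 of 1396 other members (2.94%) were at 1 or more compatible fragments. By total fragments 14 pseudogene loci (4.08%) and 56 others (4.01%) reached 10.

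**Figure D2:**
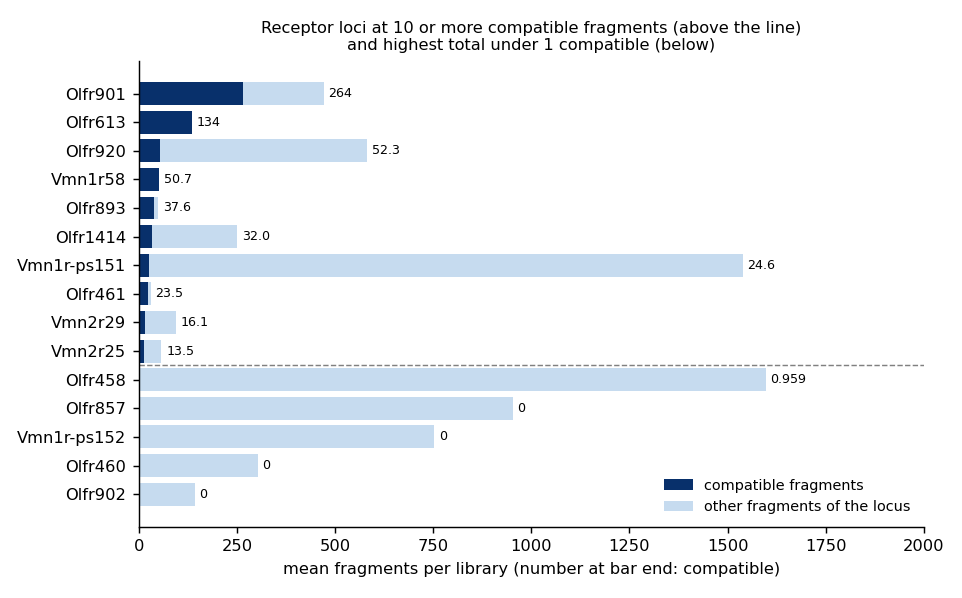
Mean fragments per library (horizontal axis) at the 10 members with 10 or more compatible fragments, above the dashed line, and at the 5 members with the highest total among those under 1 compatible fragment, below it. Dark bars are compatible fragments, printed at the bar end, and pale bars the other fragments. Olfr613 and Vmn1r58 are dark throughout, while the dark part of Olfr458 is too small to see.

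Another set of members had many fragments that matched no annotated transcript. Olfr458, an odorant receptor at chr6:42460076-42461017, had the highest total of all members, 1597, and 0.959 compatible fragments. Olfr857, at chr9:19712829-19713758, had 953 in total and 0 compatible. Olfr460, at chr6:40571357-40572417, had 303 and 0. Olfr902, at chr9:38448792-38449847, had 142 and 0. All 4 are annotated in the table as single exons, and the CV of their totals ran from 0.147 to 0.323.

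The annotated models of these genes were short. The exon length in the table was 942 bases for Olfr458, 930 for Olfr857, 1061 for Olfr460 and 1056 for Olfr902. In GENCODE M21 the exons of the same genes cover 1799, 2306, 3371 and 2113 bases. Of the 1001 members whose model is the coding sequence and its stop codon, within 10 bases, 35 had 10 or more total fragments. Their median compatible share was 0.744% (n = 35). Among members with a longer model it was 2.26% (n = 19). Other protein-coding loci at 10 or more total fragments had a median share of 20.4% where the model was coding only (n = 180) and 94.5% where it was longer (n = 12940). By family, the medians under coding only and longer models were 0.744% (n = 25) and 0.222% (n = 9) for Olfr. They were 0 (n = 4) and 27.1% (n = 6) for Vmn1r, and 11.0% (n = 6) and 3.31% (n = 4) for Vmn2r. What the low shares come from was not tested.

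Members with and without a longer model in the later annotation were of unlike kinds. Among members with 10 or more total fragments, 50 had over 100 more exon bases in GENCODE M21 than in the table, with a median compatible share of 1.84%. The other 20 had a median share of 1.28%. Of these 20, 14 had no coding model, against 2 of the 50. Where the table's model was coding only, the medians were 2.07% (n = 31) and 0 (n = 4). Where it was longer than coding, they were 1.62% (n = 17) and 52.5% (n = 2). Whether a longer annotation bears on the share was not tested. A share under 10% was found in 34 of the 50 and in 15 of the 20. The names of both sets were matched to GENCODE M21 by symbol.

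**Figure D3:**
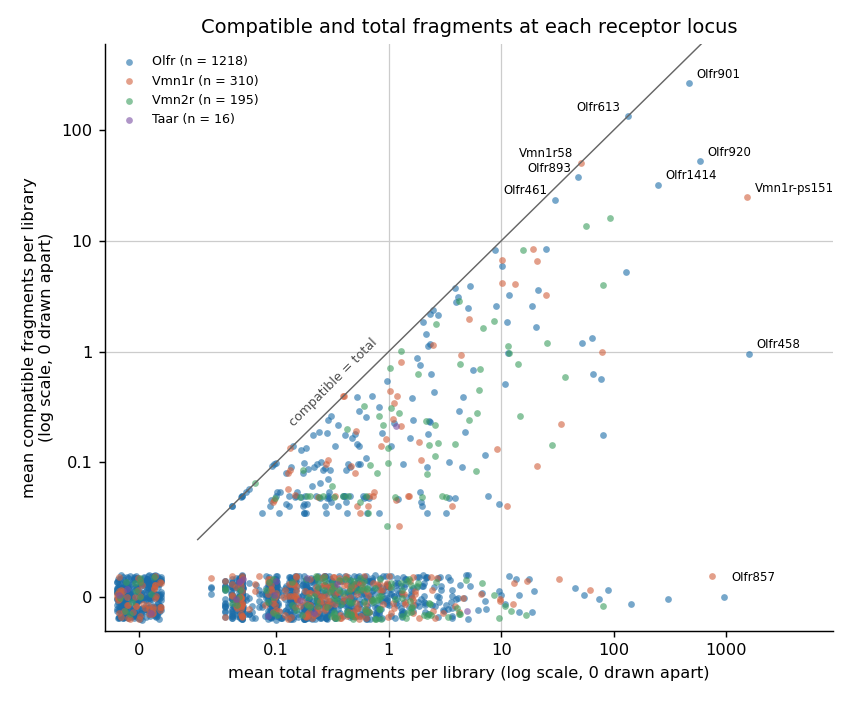
Mean compatible fragments (vertical axis) against mean total fragments (horizontal axis) for the 1739 member loci, both on log scales with 0 drawn apart; each point is a locus, coloured by family, and jitter is added at 0 only. Olfr613 and Vmn1r58 lie on the line of equal values, whereas Olfr458 and Olfr857 lie far to the right at low compatible levels.

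Members from 1 to 10 compatible fragments numbered 41. The highest were Olfr895 (8.43, out of 24.8 total) and Vmn1r42 (8.40, out of 19.3), and these lay just outside the class at 10 or more, of which Vmn2r25 and Vmn2r29 lay just inside. Vmn2r2 followed with 8.32 out of 15.6 and Olfr1055 with 8.26 out of 8.78. Then came Vmn1r-ps128 (6.78), Vmn1r-ps146 (6.58), Olfr998 (5.87), Olfr996 (5.22), Vmn1r65 (4.14) and Vmn1r-ps145 (4.09). Olfr996 had by far the largest total of these 10, at 129. At the level of 1, the members just inside were Vmn2r4 at 1.02 and Vmn2r-ps9 at 1.12. Those just outside were Vmn1r43 at 0.999 and Vmn2r-ps6 at 0.977.

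Vmn2r1, Vmn2r2, Vmn2r4 and Vmn2r5 belong to the subgroup of Vmn2r genes that vomeronasal neurons express beside another Vmn2r. Their cluster on chromosome 3 had 15 members, of which 5 were at 1 or more, the fifth being Vmn2r-ps9. The levels were 2.87 for Vmn2r1, 8.32 for Vmn2r2, 1.02 for Vmn2r4 and 1.79 for Vmn2r5. Of their stretches of 50 bases, 15.4%, 16.0%, 26.0% and 43.6% occurred in transcripts of other genes. The transcripts used have 5055 to 8390 bases, against 2727 to 2742 in the models used for the levels.

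Taar loci were nearly silent. Taar1, the trace amine receptor that is also expressed outside the nose, had 0.214 compatible and 1.16 total fragments. The other 15 Taar loci were at 0 compatible fragments, and together the 16 loci held 7.49 total fragments.

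Odorant receptors known from other organs were looked up by name, with Taar1 among them. Of these 13 genes 1 was at 10 or more (Olfr920), 8 were at 0 compatible fragments and the other 4 were under 1. Over all members, 0.575% were at 10 or more and 84.1% at 0. At Olfr920 only 8.99% of the fragments were compatible. Olfr78, a short-chain fatty acid receptor of the carotid body and kidney, was at 0 and had 0.0403 in total. Olfr558, known from blood vessels, had 0.0961. Olfr16 was at 0, Olfr544 at 0 with 2.77 in total, and Olfr1393, known from the kidney, had 0.433 with 2.51 in total. Olfr90 was at 0 with 3.38 in total, Olfr1392 at 0 with 1.35, and Olfr691 had 0.0351. Olfr288, Olfr111 and Olfr120 were at 0 with totals of 0.184, 0.0464 and 0.180.

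Many low values came from a single library. A locus with fragments in 1 library has a fixed ratio of variance to squared mean, and 151 of the 277 members above 0 matched it (54.5%). Among other loci above 0 the share was 7.34%. In the class under 1 it was 66.8% of members and 41.2% of other loci. A locus with only 1 fragment in all, a mean of 0.0476 before scaling, must match the ratio. Levels were not matched in these shares, which therefore cannot tell few fragments from uneven libraries. No member at 1 or more matched it. The highest of these members was Olfr1318, with a mean of 0.632, which is 13.3 scaled fragments in that library.

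A few members above 1 were also uneven. The smallest share of the fragments that the leading library can hold was 53.5% for Vmn1r42 (CV 3.35) and 56.0% for Olfr658 (CV 3.43, level 3.78). These were the only 2 members at 1 or more in which it passed 50%, so that a single library holds most of their fragments. At the other end, Olfr1346 had a level of 2.19 with a CV of 0.401. Among members at 10 or more, this smallest share ran from 0.272% for Olfr901 to 5.81% for Olfr1414.

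At the same levels the CV of members lay near that of other loci. From 1 to 10 fragments the median CV was 1.42 for 41 members and 1.28 for 2739 other loci. From 10 to 300 it was 0.617 for 10 members and 0.524 for 5286 other loci, whose median level was higher (72.0 against 34.8). The compatible share did stand lower, with medians of 39.9% and 88.4% in that range. In the range from 1 to 10 they were 43.4% and 57.1%.

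**Figure D4:**
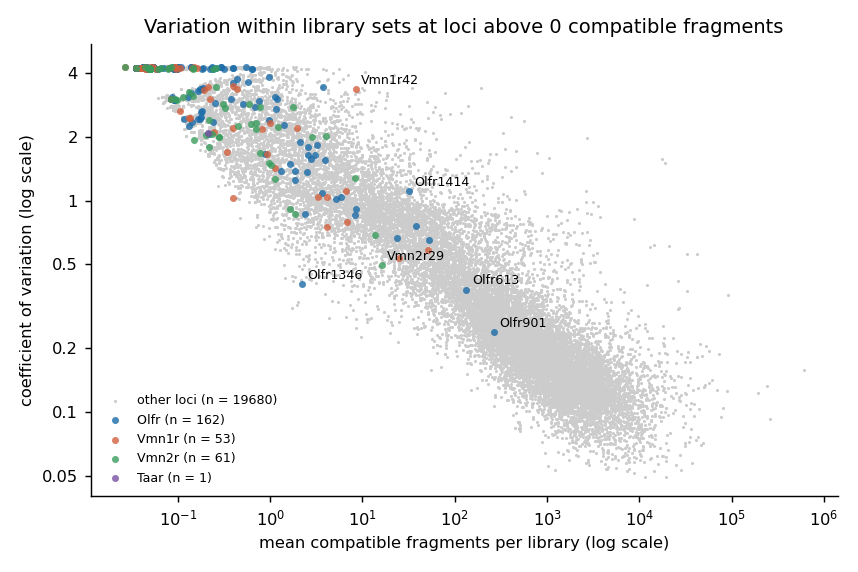
Coefficient of variation within the library sets (vertical axis, log scale) against mean compatible fragments per library (horizontal axis, log scale) for the 277 members above 0, coloured by family, over 19680 other loci in grey. Members at 10 or more lie within the grey cloud, from 0.239 for Olfr901 to 1.10 for Olfr1414, and the row of points near 4 holds loci with fragments in 1 library.

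Expressed members were unevenly placed along the genome. Members less than 1000 kb apart formed 80 clusters, of which 18 held a member at 1 or more and 7 a member at 10 or more. The cluster of Olfr901 on chromosome 9 had 98 members (5.64% of all), 7 of them at 1 or more, and 45.6% of the members' compatible fragments. The largest cluster, on chromosome 2, had 259 members, 8 at 1 or more and 3.91% of the fragments. The class I cluster on chromosome 7 had 135 members, 2 at 1 or more (Olfr613 and Olfr658) and 16.8%. By the MOR synonyms of RefSeq 134 odorant receptor loci were class I and 1024 class II. At 1 or more were 2 of class I (1.49%) and 28 of class II (2.73%).

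Within clusters, members at 1 or more had a member at 1 or more beside them more often than all members did. Of 45 members at 1 or more with another member as the next locus, 18 had a neighbour at 1 or more (40%). Over all 1604 members with an adjacent member the figure was 64 (3.99%). Of the 8 members at 10 or more with an adjacent member, 2 had one at 1 or more (25%). By total fragments, 35 of 58 members at 10 or more had an adjacent member at 10 or more (60.3%), against 83 of 1604 (5.17%). Adjacent members are often close copies, and the part of shared reads in these counts was not tested. The median distance to a locus of another kind at 10 or more was 94.2 kb for members at 1 or more and 207 kb for members at 0. For the 10 members at 10 or more it was 160 kb, against 197 kb for all members.

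The stretch around Olfr901 shows this grain. From Olfr881 to Olfr921 on chromosome 9 there were 37 members, 7 at 1 or more, 13 at 10 or more total fragments and 22 at 0 compatible. Olfr892-ps1 (2.13), Olfr893 (37.6), Olfr894 (0.570), Olfr143 (3.61) and Olfr895 (8.43) followed one another. After 5 members at 0 came Olfr901 with 264, and then Olfr902 at 0. Olfr920 lay 9.46 kb from Vwa5a, a gene of the same strand with 3534 compatible fragments. The part of such neighbours in the fragments of Olfr920 was not tested. On chromosome 1, Olfr1414 and its neighbours Olfr1415 (1.65) and Olfr1416 (1.32) lay next to Ndufa10, a respiratory chain gene with 2313, on the same strand.

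A pair of stretches on chromosome 6 place odorant receptors among bitter taste receptors, the Tas2r genes. All 6 members within 200 kb of a Tas2r locus had 10 or more total fragments, against 64 of the 1733 others (3.69%). This distance was chosen after the values were seen. In the first stretch Olfr461 (23.5 compatible, 29.8 total) lay 49.6 kb from Tas2r108 (1085 compatible), and Olfr460 (0 and 303) lay 39.9 kb from Tas2r138 (295). In the second, Olfr458 (0.959 and 1597) lay 24.6 kb from Tas2r126 (1101). Olfr457 (0.177 and 79.8), Olfr456 (1.86 and 11.2) and Olfr455 (0 and 88.4) followed. Prss37, which is no receptor and lies between Tas2r108 and Olfr461, had a like pattern with 0.0504 compatible and 1614 total fragments.

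**Figure D5:**
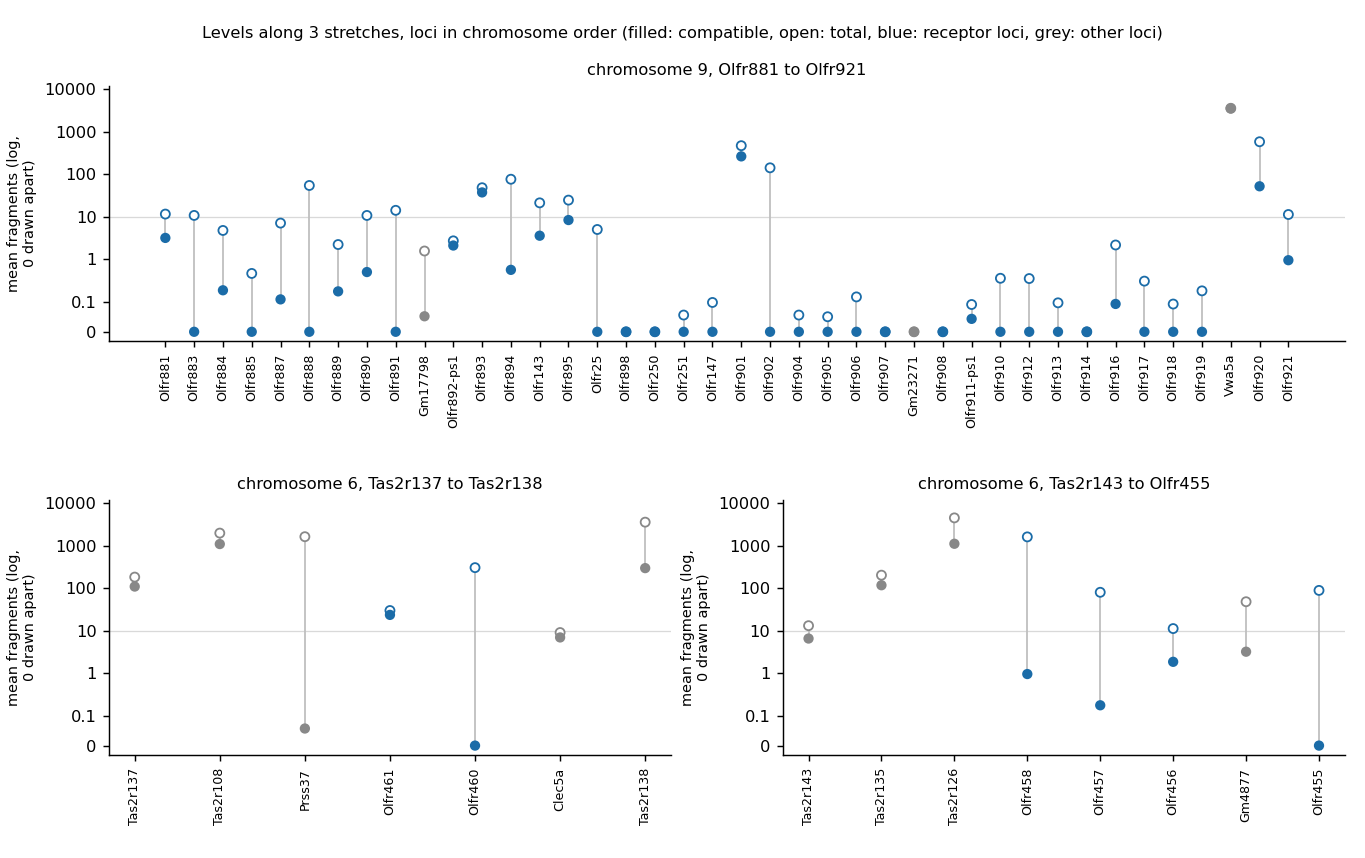
Mean fragments per library (vertical axes, log scale with 0 drawn apart) at successive loci of 3 stretches, in chromosome order; filled points are compatible and open points total fragments, blue marks receptor loci and grey other loci. Olfr901 stands at 264 in the upper panel between loci at 0, and all 6 blue open points in the lower panels lie above 10.

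Bitter receptors themselves were detected at nearly every locus. Of 35 Tas2r loci 33 were at 10 or more and 0 were at 0, with a median of 293 compatible fragments. Their compatible share of total fragments was 19.8% in sum. The tissue label was matched by taste cell genes. Of 8 markers 8 (such as Gnat3 at 24576 and Krt8 at 37058) were at 10 or more, against 44.4% of the loci other than members. Of the protein-coding loci among these, 12161 of 17665 were. A locus of their own was held by 5 of the markers, while Trpm5, Tas1r3 and Entpd2 shared theirs with other genes.

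Of 31 genes of olfactory and vomeronasal signalling and receptor transport 21 were at 10 or more and 3 at 0, while 44.4% and 35.1% of the loci other than members were. Of the protein-coding loci among these, 12161 of 17665 were at 10 or more and 13.1% at 0. Only 10 of the 21 genes had a locus of their own. Ric8b, which helps Golf to exchange nucleotide, had 2023. The receptor transporters were split: Rtp4 had 662, Reep6 960 and Reep1 104, while Rtp2 was at 0.0483 and Rtp1 and Rtp3 were at 0. The cyclic nucleotide-gated channel subunits Cnga2 and Cnga4 had 8.99 and 14.9, and Cngb1 had 1.25. Gnal (Golf), Adcy3 (the olfactory cyclase) and Trpc2 were at 10 or more only at loci that they share with other genes. Of 17 regulators of receptor choice 11 were at 10 or more, 4 of them at a locus of their own. These 4 were Bptf (2199), Bcl11b (548), Ebf4 (10.7) and Rcor2 (10.2). Kdm1a, Ldb1 and Ebf1 (35.6) were among those at 10 or more at shared loci. Lhx2, Emx2 and Ebf2, also at shared loci, were at 0.0495, 0.287 and 0.144. At loci of their own, Ebf3 was at 5.07 and Uncx at 0.

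Of 9 marker genes of olfactory neurons 4 were at 10 or more: Cnga4 (14.9, CV 1.04), and Omp, Gnal and Adcy3 at shared loci. Among the loci other than members 44.4% were, and among the protein-coding ones of these 12161 of 17665 were. Cnga2, at a locus of its own, was at 8.99. Omp, the olfactory marker protein, lies in a locus with Capn5 and Gm16938, so its own level cannot be read. Rtp1, the transporter that brings odorant receptors to the membrane, was at 0. Gng8, Gfy and Stoml3 were at 0.0867, 0.0832 and 0.0668, with 17.4 total fragments at Stoml3. Of 4 markers of vomeronasal neurons 3 were at 10 or more, Trpc2 (162) and Gnao1 (160) at shared loci and Calr4 (32.9) at its own, and Vmn2r1 was at 2.87. The part of cells other than taste cells in the receptor levels was not tested.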

How the data were processed

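Total RNA of 21 libraries from dissected circumvallate papillae was reverse transcribed with oligo(dT) primers, per the labels' protocols. The submitters' processing notes name GRCm38.p4 as the build and, as tools, Trimmomatic, FastQC, Bowtie2, TopHat, Cufflinks and Cuffdiff. Neither versions nor settings of these tools were given in the sources used here. Per the file headers, the authors deposited for each locus a mean signal of compatible and of total fragments, both variances and a fitted variance, beside a merged annotation. The depth was 2.19e+07 compatible fragments in the mean library. Loci were named by the merged annotation.

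The members and all lists were chosen with earlier results of these data known. Members are named where they had 10 or more compatible fragments, were among the 10 highest from 1 to 10, were among the 5 highest by total under 1 compatible, led a family, lay nearest a level threshold or stood on the list of receptors known outside the nose. Other genes are named as neighbours, cluster members or list members after their values were seen. No test was run, because loci are not replicates and the conditions were identical.

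A locus counted as filled by 1 library where its variance, divided by the squared mean, came within 0.0001 (relative) of the value 1 library gives in a set of 6, 7 or 8. This step was tested on simulated data. These set sizes differ from the 7 libraries a group that the labels give. The smallest share of the leading library is the variance over squared mean divided by 21. Models, shared stretches of 50 bases and windows came from GENCODE M21 and RefSeq, both on GRCm38. Shared stretches were taken for the annotated transcript with the smallest shared part, which can be longer than the model used for the levels. Scripts ran under Python 3.11.15 with pandas 2.3.3 and numpy 2.4.6, and matplotlib 3.10.9 drew the plots. The coding windows of 2 further receptors at 10 or more compatible fragments are not reported here.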

Additional observations from a re-analysis of the deposited data

How the results depend on the processing

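Of 27 alternative values for 8 results, 16 were counts of loci within 1.5 times the reported count. With total in place of compatible fragments the members at 0, under 1, from 1 to 10 and at 10 or more numbered 353, 1065, 251 and 70. With all loci that hold a receptor, 19 were at 10 or more. A minimum of 5 fragments gave 18 expressed members and a minimum of 50 gave 4, while fragments per kb gave 9. Without Olfr901 the summed compatible fragments fell from 821 to 557. The compatible share, 8.44% in sum, had a median of 0 over members with at least 1 total fragment. Among other loci the share at 0 was 35.1%, and it was 46.4% at loci matched in exon length and 13.1% at protein-coding loci. Leaving out pseudogene symbols or loci with 2 symbols, or taking names only from transcripts inside the locus, kept every class within 1.5 times. The table has no values per library, so no library could be left out. No paired analysis was possible because the results come from no test. A mean under 0.143 rests on fewer than 3 scaled fragments over 21 libraries.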

Other observations

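Another 43 loci held 65 receptor symbols together with other genes, and 9 of these loci were at 10 or more compatible fragments and 22 at 0. At Gm2308 and Vmn2r60 the shared level was 38.8, and at the locus of Hmgb1-ps7, Gm7224 and Vmn2r59 it was 68.4. The levels of the loci of Vmn2r21 and Vmn2r22 were the same, at 1.80 compatible fragments each, with 25.8 and 25.9 in total. Of the stretches of 50 bases in the Vmn2r22 transcript, 60.2% also occurred in that of Vmn2r21. The same loci also hold Gm25891 and Gm25065, whose transcripts share 100% of these stretches with each other, and which gene of a locus the level comes from was not tested.

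Of 14 other chemosensory genes of the nose 9 were at 1 or more. Among the loci other than members 53.4% were, and among the protein-coding ones of these 78.0%. At 10 or more was 1 gene, Ms4a7 with 20.0, against 44.4% of all loci other than members, and 4 genes were at 0. Among the formyl peptide receptors, Fpr-rs3, Fpr-rs4 and Fpr-rs6 were at 0, and Fpr1, which immune cells use, had 1.32. Fpr2 and Fpr3 shared a locus at 8.93. Gucy2d, the guanylyl cyclase of a subset of olfactory neurons, had 5.88.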
